A study of Mus musculus with 6 samples.

Results

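Cells sense oxygen through the hypoxia-inducible factors (HIFs), transcription factors made of an oxygen-labile alpha subunit and a stable partner, ARNT. In normal oxygen, prolyl hydroxylases of the EGLN family mark the alpha subunit, the ubiquitin ligase subunit VHL recognizes the mark, and the alpha subunit is degraded. In low oxygen it escapes this mark, enters the nucleus and activates genes of glycolysis, angiogenesis, pH control and mitophagy. The control is mostly of the protein, so the mRNA levels reported here do not measure HIF activity directly. Tendon is a poorly vascularized tissue, and HIF signalling is known to act in cartilage and bone formation. The 10 genes described here were chosen by their symbols. They are the alpha subunits *Hif1a* and *Epas1* (HIF-2 alpha), the prolyl hydroxylases *Egln1* and *Egln3*, *Vhl*, and the known HIF targets *Ddit4*, *Car9*, *Bnip3*, *Adm* and *Ankrd37*. All 10 were present among the 44788 gene symbols of the table, and all 10 were among the 14550 genes with enough counts to be tested.

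Gene counts came from bulk RNA-seq of the tail tendons of 3-week-old C57BL/6 mice, 3 wild type (WT) and 3 *Mkx*-/-, and the labels name no treatment. The labels give this age, and the text of the study gives another. *Mkx* encodes Mohawk, a transcription factor of tendon cells, and its knockout leads to bone formation inside tendons in mice. Whether a library came from 1 mouse or from pooled mice is not stated, so p-values measure the spread between these libraries. The libraries held 10835070 to 14160301 counts. The *Mkx* gene had 1381 to 1825 counts in WT and 491 to 620 counts in *Mkx*-/- libraries, a log2 fold change of -1.60 (SE 0.16, adjusted p = 0.00183 in edgeR), so reads on it remained in all 3 knockout libraries. All 10 tendon markers were detected in every library, with *Tnmd* between 886 and 1292 CPM (the count scaled by library size and composition) and *Scx* between 13.4 and 53.4 CPM. Their summed level was lower in all 3 *Mkx*-/- libraries, at 241965 to 336861 CPM against 378016 to 521589 CPM in WT, although 1 of the 10 rose and 0 fell past an adjusted p of 0.05 in edgeR (6 had an unadjusted p under 0.05, and 6 passed in DESeq2). *Col1a1* and *Col1a2* made up most of this sum, so it does not speak for all 10. *Thbs4*, *Tnc* and *Comp* were higher in all 3 *Mkx*-/- libraries, *Col1a2* and *Egr1* were lower in all 3, and the others overlapped. *Col1a1*, *Col1a2* and *Sparc* together took 42.0% to 48.5% of counts in WT and 28.4% to 34.8% in *Mkx*-/- libraries.

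Some libraries stood apart. Of 10215 genes averaging 5 CPM or more in WT, 128 were more than 2 times higher in WT replicate 1 than in either other WT library, against 2 and 4 genes for WT replicates 2 and 3. In the same count *Mkx*-/- replicates 1 to 3 had 26, 11 and 63 genes, each set over the other *Mkx*-/- libraries. The summed level of 10 erythroid genes was 455 CPM in WT replicate 1 and 52.1 to 104 CPM in the other 5 libraries. *Mkx*-/- replicate 3 held 202 CPM of the smooth muscle gene *Myh11*, against 1.97 to 2.75 CPM elsewhere. WT replicate 3 had 301 counts on the Y-linked gene *Ddx3y*, and the other libraries had 0. Summed marker levels in WT and *Mkx*-/- libraries were 6029 to 8318 and 9698 to 18112 CPM for Schwann cells, 540 to 1075 and 751 to 1249 CPM for cartilage, 12.7 to 29.4 and 24.7 to 33.9 CPM for keratinocytes, 8.49 to 13.4 and 21.3 to 30.6 CPM for adipocytes, and 3.07 to 5.45 and 6.67 to 7.37 CPM for osteoblasts. Where leaving out one of these libraries changed a call, the value without it is given.

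Before the values, the promoters of the 4 targets with the largest fold changes are shown, because they show where the letters that HIF is known to bind lie in each. The sequences are those of RefSeq (GRCm38.p6) and cover the 250 bases before the gene start, 5′ to 3′ on the strand of the gene. Capitals mark ACGTG or GCGTG on either strand, so that CACGT and CACGC are capitalized too and neighbouring matches can overlap.
*Ddit4* promoter, chr10:59951771-59952020 (- strand, GRCm38.p6): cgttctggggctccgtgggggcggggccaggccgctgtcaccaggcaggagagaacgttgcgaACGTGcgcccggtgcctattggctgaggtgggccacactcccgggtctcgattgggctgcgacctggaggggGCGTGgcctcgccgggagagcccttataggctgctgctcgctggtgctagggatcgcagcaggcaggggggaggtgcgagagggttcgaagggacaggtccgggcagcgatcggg
*Adm* promoter, chr7:110627407-110627656 (+ strand, GRCm38.p6): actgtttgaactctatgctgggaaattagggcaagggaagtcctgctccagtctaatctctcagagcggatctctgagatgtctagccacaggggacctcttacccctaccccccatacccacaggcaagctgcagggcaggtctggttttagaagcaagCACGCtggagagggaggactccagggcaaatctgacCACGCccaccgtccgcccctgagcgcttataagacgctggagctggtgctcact
*Car9* promoter, chr4:43506776-43507025 (+ strand, GRCm38.p6): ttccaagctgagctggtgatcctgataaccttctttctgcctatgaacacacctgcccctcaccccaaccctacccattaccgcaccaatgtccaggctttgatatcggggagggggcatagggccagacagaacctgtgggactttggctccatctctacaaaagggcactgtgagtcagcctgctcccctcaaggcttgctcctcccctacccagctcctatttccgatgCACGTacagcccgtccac
*Bnip3* promoter, chr7:138909507-138909756 (- strand, GRCm38.p6): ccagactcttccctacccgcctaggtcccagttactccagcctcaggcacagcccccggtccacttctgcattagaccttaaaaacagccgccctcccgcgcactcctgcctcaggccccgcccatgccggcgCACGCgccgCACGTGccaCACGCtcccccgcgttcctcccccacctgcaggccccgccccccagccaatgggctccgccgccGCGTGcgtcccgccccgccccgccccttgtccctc
*Ddit4* held 1 match to ACGTG and 1 to GCGTG. *Adm* held 2 matches to GCGTG and 0 to ACGTG, *Car9* held 1 match to ACGTG, and *Bnip3* held 5 matches in 4 separate stretches. Promoters were matched for 9 of the 10 genes, all but *Epas1*, and 8 of the 9 held at least 1 match. Of all 32851 promoter windows of this length, 38.6% held at least 1 match, and 16.6% held ACGTG, which was present in 7 of the 9. The letters searched for contain CG, and the windows were not matched for GC content, which was 50.8% to 86.0% in the 9. These shares therefore do not show an excess of matches. A match is a description of the letters and not of a bound site.

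The question was whether the genes of oxygen sensing differed between WT and *Mkx*-/- tendons. Of the 10 genes, 1 was past an adjusted p of 0.05 in edgeR's quasi-likelihood test, *Ddit4*, which fell, and 0 rose. Of all tested genes, 5.44% passed in either direction, 3.18% upward and 2.26% downward. It was also the only one called at that threshold together with a log2 fold change above 1 or below -1, where 3.22% of all genes were called, 1.89% upward and 1.33% downward. The libraries of the 2 groups did not overlap for 3 of the 10, *Egln1* and *Adm* upward and *Ddit4* downward, and for 28.2% of all genes. At an unadjusted p under 0.05 there were 3 of the 10, where 22.6% of all genes passed. The median log2 fold change of the 10 was -0.11, and that of all tested genes was -0.004. DESeq2 placed 2 of the 10 past an adjusted p of 0.05, *Ddit4* and *Adm*, with 9.45% of all genes past it.

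**Figure D1:**
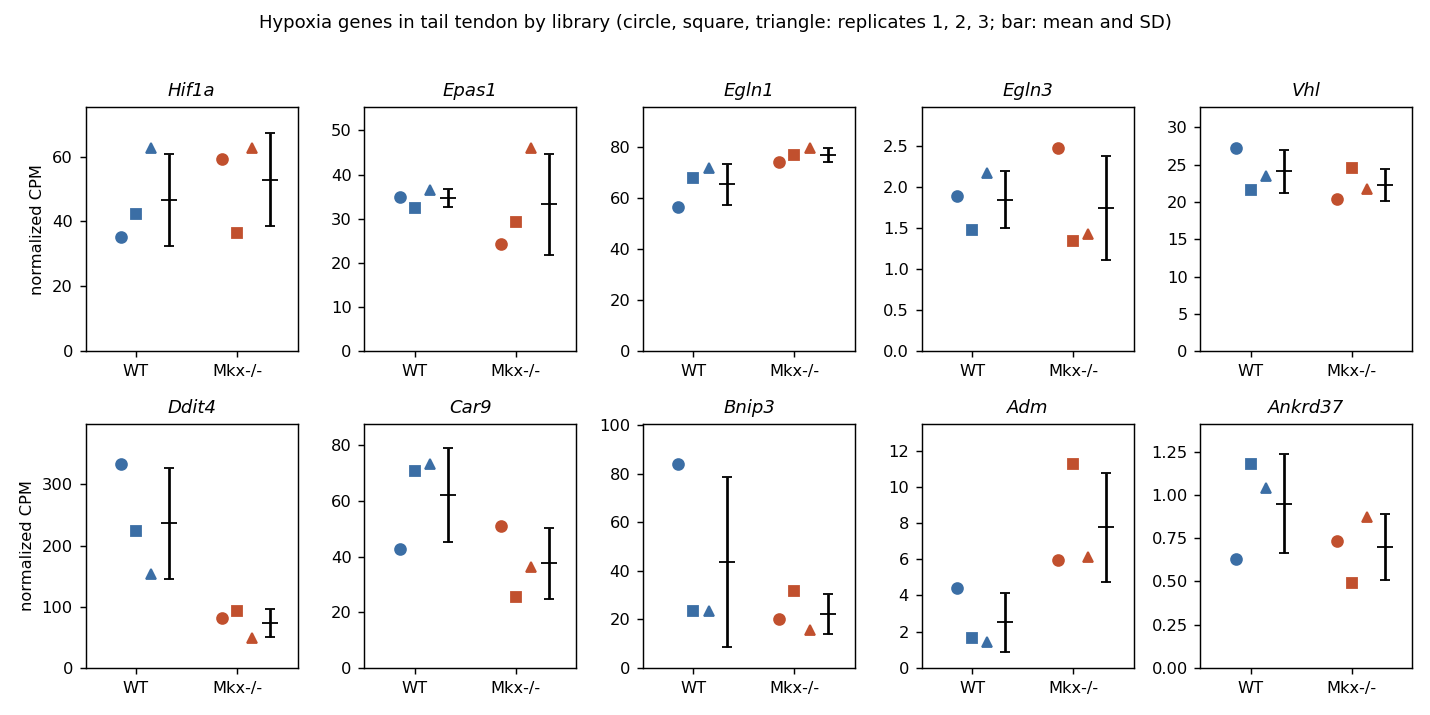
Normalized CPM (y axis, from 0 in each panel) of the 10 genes in the 3 WT (blue) and 3 *Mkx*-/- (red) libraries, with circles, squares and triangles for replicates 1, 2 and 3 and a bar for mean and SD. *Ddit4* lay lower in all 3 *Mkx*-/- libraries, *Adm* and *Egln1* lay higher in all 3, and *Bnip3* stood out in WT replicate 1 at 83.9 CPM.

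The alpha subunits came first. *Hif1a*, on the plus strand of chromosome 12 from 75002362 to 75048517 (mm9), encodes the widely expressed HIF-1 alpha. It was at 35.1, 42.2 and 62.5 CPM in WT replicates 1 to 3 and at 59.4, 36.4 and 62.7 CPM in *Mkx*-/- replicates 1 to 3. Each group held both low and high libraries, and the groups overlapped over nearly their whole range. The log2 fold change was 0.18 (95% interval -0.42 to 0.78, adjusted p = 0.738 in edgeR), so that a change of 2-fold in either direction lay outside the interval. Over the fits that each omitted 1 library it ran from 0.007 without WT replicate 1 to 0.43 without WT replicate 3, and 0 of them passed. The annotation places *Gm15283* on the opposite strand over *Hif1a*, and the treatment of strand in counting is not stated.

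*Epas1*, on the plus strand of chromosome 17 from 87153247 to 87232750, encodes HIF-2 alpha, which is known to be abundant in endothelial cells. It was at 34.8, 32.5 and 36.5 CPM in WT libraries and at 24.3, 29.4 and 46.1 CPM in *Mkx*-/- libraries. The WT libraries were close together, while the *Mkx*-/- libraries lay on both sides of them. The log2 fold change was -0.058 (95% interval -0.56 to 0.45, adjusted p = 0.911 in edgeR). It was -0.37 without *Mkx*-/- replicate 3, 0.098 without *Mkx*-/- replicate 1 and 0.025 without *Mkx*-/- replicate 2, so its sign rested on single libraries. The library with the most *Epas1*, *Mkx*-/- replicate 3, also had the highest summed level of 20 endothelial genes, 517 CPM against 283 to 335 CPM in WT and 400 and 447 CPM in the other *Mkx*-/- libraries. It had 1000.2 CPM of 10 pericyte and smooth muscle genes, against 323 to 402 CPM elsewhere. The part of these cells in the *Epas1* level was not tested, and in bulk tissue more cells of a type and more RNA per cell cannot be told apart.

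Across the 6 libraries, the 3 genes with a log2 CPM most like that of *Hif1a* were *1700025G04Rik*, *Nus1* and *St3gal4* (Pearson r of 0.997, 0.992 and 0.990, among 10294 compared genes averaging 5 CPM or more). For *Epas1* they were *Cd200*, *Gm9762* and *Gm14414* (0.981, 0.980 and 0.957). These are descriptions over 6 libraries that share their depth and scaling, and they carry no test.

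None of the oxygen sensors *Egln1* and *Egln3* or *Vhl* passed the test. *Egln1* encodes PHD2, the main prolyl hydroxylase of HIF-1 alpha. It was at 56.5, 68.1 and 71.8 CPM in WT libraries and at 74.3, 77.1 and 79.8 CPM in *Mkx*-/- libraries. All 3 *Mkx*-/- libraries were above all 3 WT libraries, by a small margin. This order, upward, was shared by 14.6% of all tested genes, and the log2 fold change of 0.24 (95% interval -0.053 to 0.53) did not pass the test (adjusted p = 0.315 in edgeR). *Egln3* encodes PHD3, a prolyl hydroxylase that is itself a HIF target. It was a low-count gene, with 15 to 27 counts per library, at 1.47 to 2.16 CPM in WT and 1.33 to 2.47 CPM in *Mkx*-/- libraries. Its log2 fold change was -0.10 (95% interval -0.88 to 0.68, adjusted p = 0.900 in edgeR), and a difference below the size of that interval was not detectable at this depth. *Vhl* was at 27.3, 21.6 and 23.5 CPM in WT and at 20.4, 24.6 and 21.8 CPM in *Mkx*-/- libraries. The groups overlapped, with a log2 fold change of -0.11 (95% interval -0.43 to 0.20, adjusted p = 0.679 in edgeR).

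The other genes of this machinery did not pass either. Of 23 HIF partners, oxygen sensors and members of the degradation machinery, 22 were tested, and 0 were past an adjusted p of 0.05 in edgeR. By DESeq2 there was 1, *Arnt2*, and at an unadjusted p under 0.05 in edgeR there was also 1. The median log2 fold change of this list was -0.022. *Arnt2*, a paralog of the HIF partner *Arnt*, was at 20.1 to 21.7 CPM in WT and at 29.7, 30.2 and 46.2 CPM in *Mkx*-/- libraries, with a log2 fold change of 0.77 (SE 0.19, adjusted p = 0.0524 in edgeR and 0.00898 in DESeq2). *Arnt* itself was at 50.4 to 54.6 CPM in WT and 48.1 to 53.9 CPM in *Mkx*-/- libraries (log2 fold change -0.033, adjusted p = 0.898 in edgeR). *Hif1an*, the asparaginyl hydroxylase that limits HIF activity, was at 37.1 to 44.5 CPM in WT and lower in all 3 *Mkx*-/- libraries, at 33.4 to 35.5 CPM, with a log2 fold change of -0.27 that did not pass the test (adjusted p = 0.230 in edgeR). *Egln2*, the prolyl hydroxylase PHD1, had a log2 fold change of -0.050 (adjusted p = 0.864 in edgeR).

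**Figure D2:**
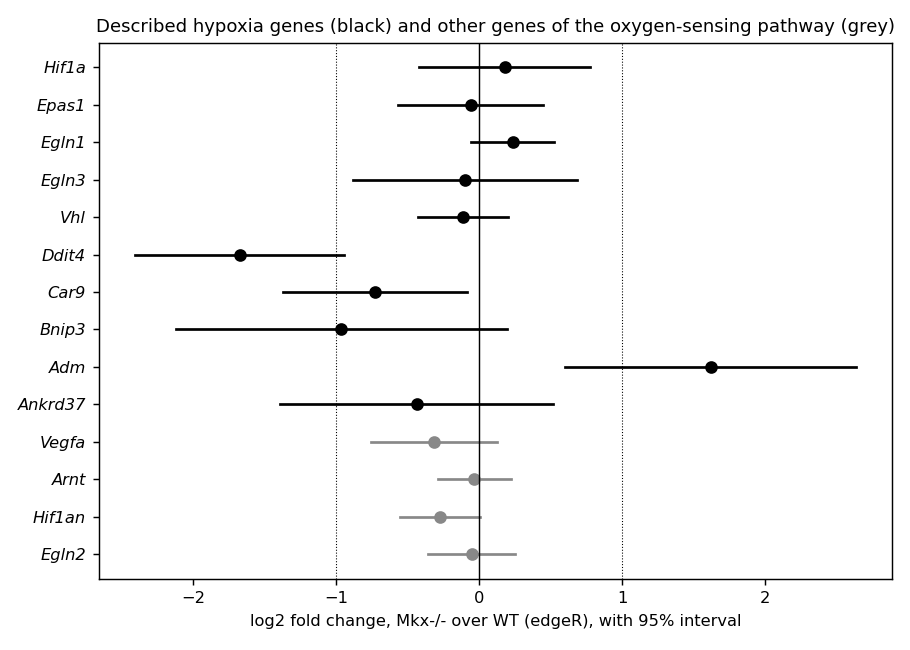
Log2 fold change of *Mkx*-/- over WT (x axis) with its 95% interval for the 10 genes (black) and for *Vegfa*, *Arnt*, *Hif1an* and *Egln2* (grey). Dotted lines mark a 2-fold difference. The intervals of *Hif1a*, *Epas1*, *Egln1*, *Egln3* and *Vhl* all include 0 and lie within the dotted lines, those of *Ddit4* and *Car9* lie below 0, and that of *Adm* lies above 0.

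Among the targets, *Ddit4* fell in *Mkx*-/- tendons. It encodes REDD1, an inhibitor of mTORC1 that is induced by hypoxia and also by glucocorticoids, energy stress and ATF4. In mm9 the gene spans 59412423 to 59414518 of chromosome 10, minus strand. Its levels were 333, 224 and 153 CPM in WT replicates 1 to 3 and 81.3, 92.6 and 48.3 CPM in *Mkx*-/- replicates 1 to 3. The lowest WT library was above the highest *Mkx*-/- library, an order that 13.6% of all tested genes shared in this direction. The mean fell from 237 ± 90.5 CPM to 74.1 ± 23.0 CPM (SD, n = 3 each), and the fitted level was 3.19-fold higher in WT, with a log2 fold change of -1.68 (SE 0.32, adjusted p = 0.0247 in edgeR and 1.57e-06 in DESeq2). WT replicate 1 was the highest, and leaving it out gave -1.35 (adjusted p = 0.0222 in edgeR). The call was lost when WT replicate 2, *Mkx*-/- replicate 1 or *Mkx*-/- replicate 3 was left out, with edgeR adjusted p = 0.0814, 0.0571 and 0.0667.

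Genes that share the other known inducers of *Ddit4* were read beside it, from hand-written lists. Their counts past an adjusted p of 0.05 in edgeR stand beside 2.26% of all tested genes that fell and 3.18% that rose. Of 18 tested glucocorticoid-induced genes, 2 fell and 0 rose, with a median log2 fold change of -0.24. Their summed level was 4514, 2921 and 2022 CPM in WT replicates 1 to 3. It was 2423, 3106 and 1689 CPM in *Mkx*-/- replicates 1 to 3, so the groups overlapped. Within each group the order of the libraries was the same as for *Ddit4*. *Errfi1*, a feedback inhibitor of EGF receptors, was at 804, 436 and 260 CPM in WT and 72.1, 139 and 57.1 CPM in *Mkx*-/- libraries (log2 fold change -2.49, adjusted p = 0.0220 in edgeR). Its call was lost without WT replicate 2, *Mkx*-/- replicate 1 or *Mkx*-/- replicate 3 (adjusted p = 0.0692, 0.0671 and 0.0728 in edgeR). The MAP kinase phosphatase gene *Dusp1* also fell (log2 fold change -1.22, adjusted p = 0.0248 in edgeR). *Dusp1* is an immediate early gene too, and of 13 genes of that kind, which respond within minutes to handling and to growth signals, 5 fell and 0 rose, with a median of -0.69. Their summed level was 781 to 1067 CPM in WT and 574 to 610 CPM in *Mkx*-/- libraries, so that its groups, like those of *Ddit4*, did not overlap. Among WT libraries, replicate 1 had the highest sum, 1067 CPM against 781 and 833 CPM, and also the highest *Ddit4*. Among *Mkx*-/- libraries, whose sums lay close together, replicate 3 had the highest sum and the lowest *Ddit4*. The 3 with the smallest p besides *Dusp1* were *Fosb*, *Jun* and *Fos*, with log2 fold changes of -1.36, -0.69 and -1.91 (adjusted p = 0.00250, 0.0252 and 0.0404 in edgeR). Leaving out WT replicate 3 or any *Mkx*-/- library ended the calls on *Dusp1*, *Jun* and *Fos* (adjusted p in edgeR of 0.0572 to 0.0917, 0.0599 to 0.0952 and 0.0917 to 0.111), as did leaving out WT replicate 2 for *Jun* (0.0663), whereas *Fosb* passed in all 6 such fits. Of 19 tested ATF4-dependent genes, 1 fell, the cystine transporter gene *Slc7a11* (log2 fold change -4.22, adjusted p = 0.000168 in edgeR), and 0 rose, with a median of -0.27. The summed level of the ATF4 list did not overlap either, at 1172 to 1395 CPM in WT and 974 to 1040 CPM in *Mkx*-/- libraries. The part of handling or of these inducers in the *Ddit4* level was not tested.

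Of 15 other genes that restrain mTORC1 or act in the TSC complex, 0 passed in edgeR, 3 passed in DESeq2 and 5 had an unadjusted p under 0.05 in edgeR, with a median log2 fold change of -0.047. *Ddit4l*, the paralog of *Ddit4*, was at 127, 55.8 and 67.9 CPM in WT and at 34.7, 48.5 and 26.5 CPM in *Mkx*-/- libraries. Like *Ddit4* it was lower in all 3 *Mkx*-/- libraries, with a log2 fold change of -1.19 that did not pass in edgeR (SE 0.33, adjusted p = 0.0755, and 0.00326 in DESeq2). Without WT replicate 1 it was -0.76 (adjusted p = 0.0884 in edgeR). *Deptor*, an inhibitor that binds mTOR directly, had a log2 fold change in the other direction, 0.99 (adjusted p = 0.0734 in edgeR and 0.00777 in DESeq2), and without WT replicate 1 it was 1.40 and passed in edgeR (adjusted p = 0.00260).

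*Adm* had the highest log2 fold change of the 10 genes. It encodes adrenomedullin, a secreted vasodilator peptide that acts on endothelial cells. In mm9 the gene spans 117771175 to 117773331 of chromosome 7, plus strand. It was a low-count gene, with 56, 17 and 18 counts in WT and 65, 160 and 77 counts in *Mkx*-/- libraries. These correspond to 4.41, 1.67 and 1.44 CPM in WT and to 5.95, 11.2 and 6.10 CPM in *Mkx*-/- libraries. The groups did not overlap, although WT replicate 1 came near the lowest *Mkx*-/- library. The log2 fold change of 1.62 (SE 0.45, 95% interval 0.60 to 2.64) did not pass the threshold in edgeR (adjusted p = 0.0749) and passed it in DESeq2 (adjusted p = 0.00624). Without WT replicate 1 it was 2.33 and passed in edgeR (adjusted p = 0.0100). Without *Mkx*-/- replicate 2, the highest library, it was 1.25 (adjusted p = 0.204 in edgeR). Endothelial genes, summed, were also higher in all 3 *Mkx*-/- libraries (the values stand beside *Epas1*). Within the groups the order differed, since *Adm* was highest in WT replicate 1 and *Mkx*-/- replicate 2. The endothelial sum was highest in WT replicate 2 and *Mkx*-/- replicate 3, at 335 and 517 CPM. *Cd34* was the largest part of this sum, at 151 to 191 CPM in WT and 202 to 239 CPM in *Mkx*-/- libraries. Of 19 tested endothelial genes, 2 rose and 0 fell past the threshold in edgeR, with a median log2 fold change of 0.69. Of all tested genes, 3.18% rose and 2.26% fell past it. DESeq2 placed 6 of the 19 past it, against 9.45% of all genes. At an unadjusted p under 0.05 in edgeR there were 12, against 22.6% of all genes. *Pecam1*, *Cdh5* and *Erg* were higher in all 3 *Mkx*-/- libraries, whereas *Kdr*, *Flt1* and *Tek* overlapped between the groups. The part of endothelial cells in the *Adm* level was not tested.

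Of 7 tested genes of the adrenomedullin family and its receptors, 1 rose and 0 fell. *Ackr3*, which encodes a scavenger receptor that takes up CXCL12 and adrenomedullin, was at 106, 90.1 and 66.2 CPM in WT and at 173, 203 and 203 CPM in *Mkx*-/- libraries, with no overlap (log2 fold change 1.14, SE 0.18, adjusted p = 0.0131 in edgeR). The call on *Ackr3* was lost without WT replicate 2 (adjusted p = 0.0615 in edgeR). The median of these 7 genes was 0.41.

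*Car9* had the opposite tendency. It encodes carbonic anhydrase IX, a membrane enzyme that hydrates carbon dioxide outside the cell and is a widely used marker of hypoxia. It lies on chromosome 4 from 43519838 to 43526601 in mm9, with *Gm12454* on the opposite strand. Its levels were 42.7, 70.8 and 73.1 CPM in WT and 50.9, 25.5 and 36.4 CPM in *Mkx*-/- libraries. The groups overlapped because WT replicate 1 was below *Mkx*-/- replicate 1. The means were 62.2 ± 16.9 and 37.6 ± 12.8 CPM (SD, n = 3 each), with a log2 fold change of -0.73 (SE 0.28) that did not pass in edgeR (adjusted p = 0.169) or in DESeq2 (adjusted p = 0.0825). Without WT replicate 1 it was -0.94 (adjusted p = 0.0535 in edgeR). Of 8 other carbonic anhydrase genes tested, *Car12*, which encodes another membrane-bound HIF-inducible enzyme, fell from 7.23 ± 2.29 to 0.575 ± 0.101 CPM (SD, n = 3 each, log2 fold change -3.61, adjusted p = 0.00151 in edgeR). *Car3*, a cytosolic form abundant in muscle and fat, rose with a log2 fold change of 2.62 (adjusted p = 0.0258 in edgeR), a call lost without WT replicate 2 or 3 or *Mkx*-/- replicate 2 or 3 (0.0909, 0.106, 0.0688 and 0.0529). Without WT replicate 1 it was 3.36 (adjusted p = 0.00445 in edgeR). *Car3* was at 10.6, 2.75 and 4.25 CPM in WT and at 22.1, 57.9 and 29.3 CPM in *Mkx*-/- libraries. The summed level of 20 skeletal muscle genes was 482, 127 and 331 CPM in WT and 3393, 1635 and 670 CPM in *Mkx*-/- libraries. That of 8 adipocyte genes was 13.4, 8.93 and 8.49 CPM in WT and 21.3, 30.6 and 21.3 CPM in *Mkx*-/- libraries. Among *Mkx*-/- libraries *Car3* was lowest where the muscle sum was highest, and highest where the adipocyte sum was highest. The part of either cell type in the *Car3* level was not tested.

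The difference in *Bnip3* rested on a single library. It encodes a mitochondrial outer membrane protein that recruits the autophagy machinery, and is induced by HIF-1 and by FOXO factors. In mm9 the gene spans 146082519 to 146101202 of chromosome 7, minus strand. It was at 83.9 CPM in WT replicate 1 and at 23.6 and 23.3 CPM in the other WT libraries, against 20.0, 31.5 and 15.5 CPM in *Mkx*-/- libraries. WT replicate 1 was 3.56 times above the next WT library, and its other WT libraries lay within the range of the *Mkx*-/- libraries. The log2 fold change was -0.96 with all libraries (SE 0.51, adjusted p = 0.306 in edgeR) and -0.065 without WT replicate 1 (adjusted p = 0.911 in edgeR). *Bnip3* was the only one of the 10 genes among the 128 that were more than 2 times higher in WT replicate 1. *Adm* was 2.64 times above the next WT library there, but its level was too low for that count. Of 15 tested genes of mitophagy receptors and adaptors, 0 passed in edgeR and 0 in DESeq2, with 2 at an unadjusted p under 0.05 in edgeR. *Bnip3l* (NIX), the paralog of *Bnip3*, was at 69.7, 51.5 and 57.8 CPM in WT and at 44.6, 50.0 and 43.4 CPM in *Mkx*-/- libraries (log2 fold change -0.38, adjusted p = 0.163 in edgeR), and *Map1lc3a*, an LC3 gene, had a log2 fold change of 0.42 (adjusted p = 0.109 in edgeR).

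*Ankrd37*, a HIF-1 target that encodes an ankyrin repeat protein, was near the limit of detection. It had 7 to 13 counts per library, at 0.630, 1.18 and 1.04 CPM in WT and 0.733, 0.492 and 0.872 CPM in *Mkx*-/- libraries. The groups overlapped (log2 fold change -0.44, 95% interval -1.39 to 0.52, adjusted p = 0.589 in edgeR), and the interval includes a 2-fold decrease. *Lrp2bp* and *Ufsp2* lie on the opposite strand over this gene.

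**Figure D3:**
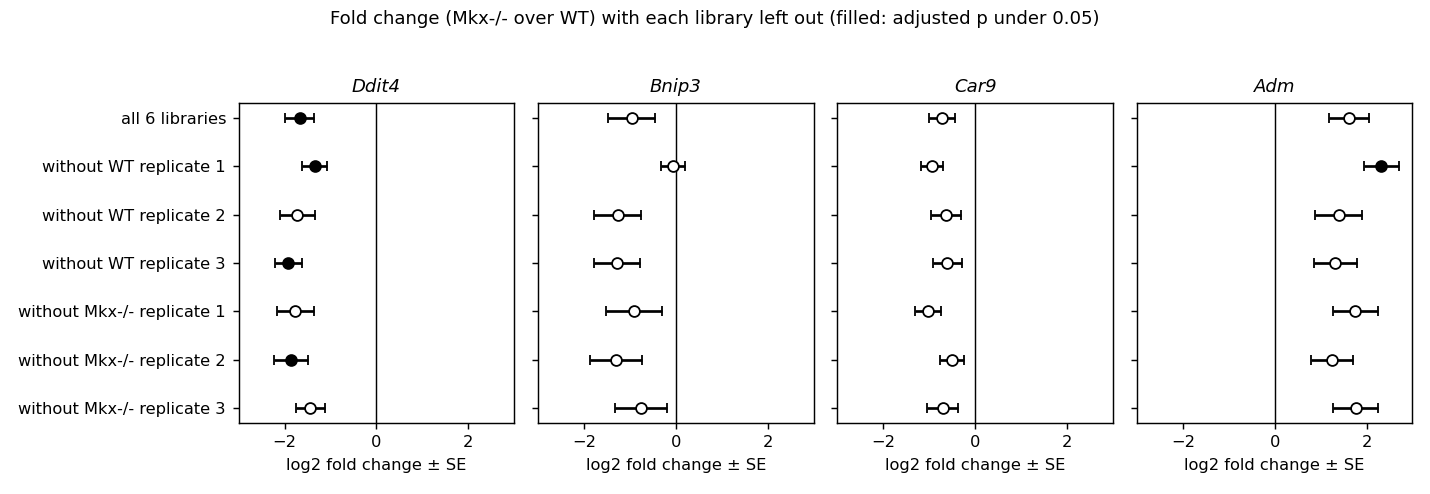
Log2 fold change of *Mkx*-/- over WT with its standard error (x axis) for *Ddit4*, *Bnip3*, *Car9* and *Adm*, with all 6 libraries and with each library left out (rows). Filled points are past an adjusted p of 0.05 in edgeR. *Bnip3* moves from -0.96 to -0.065 without WT replicate 1, and *Adm* moves from 1.62 to 2.33.

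Levels between the genes were compared per kilobase of annotated exon. In WT tendons *Ddit4* was the highest, at 140 ± 53.7 CPM per kilobase (SD, n = 3), and its lowest library was above every library of the next gene. *Car9*, *Bnip3* and *Egln1* followed at 27.0 ± 7.35, 19.2 ± 15.4 and 18.6 ± 2.27, and neighbours in this trio overlapped. *Vhl*, *Hif1a* and *Epas1* formed a group at 8.04 ± 0.963, 7.91 ± 2.41 and 6.52 ± 0.382 with overlapping neighbours. *Adm* lay at 1.81 ± 1.19, and *Egln3* and *Ankrd37* were the lowest at 0.692 ± 0.131 and 0.677 ± 0.203, without separation between them. In *Mkx*-/- tendons *Ddit4* remained above every library of the next gene, at 44.0 ± 13.7, and the next was *Egln1* at 21.9 ± 0.789, which overlapped with *Car9* at 16.3 ± 5.54. *Adm* reached 5.60 ± 2.17 and overlapped with *Epas1* at 6.26 ± 2.15, which it did not in WT tendons.

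Of 46 tested genes of a hand-written list of other HIF targets, 3 rose and 5 fell in edgeR, with a median log2 fold change of -0.14. Of all tested genes, 3.18% rose and 2.26% fell at the same threshold. DESeq2 placed 13 of the 46 past an adjusted p of 0.05, against 9.45% of all genes. At an unadjusted p under 0.05 in edgeR there were 20, against 22.6% of all genes. These counts are descriptions, since the list was written with earlier results of these data known. *Ppp1r3c*, a glycogen-targeting phosphatase subunit, fell from 81.6 ± 14.8 to 6.96 ± 0.872 CPM (SD, n = 3 each, log2 fold change -3.54, adjusted p = 0.000141 in edgeR). *Car12*, *Lox*, *Ndufa4l2* and *Rora* were the others that fell. *Lox*, the enzyme that starts collagen cross-linking, went from 3895 ± 666 to 1470 ± 322 CPM (SD, n = 3 each, log2 fold change -1.41, adjusted p = 0.0122 in edgeR). *Ndufa4l2*, a mitochondrial protein gene, and *Rora*, a nuclear receptor gene, had log2 fold changes of -1.03 and -0.79 (adjusted p = 0.0102 and 0.0143 in edgeR). Single libraries carried some of these calls, since *Lox* did not pass without WT replicate 3 (edgeR adjusted p = 0.0556), *Ndufa4l2* without WT replicate 2 (0.0509), or *Rora* without WT replicate 3 or *Mkx*-/- replicate 2 or 3 (0.0590, 0.0538 and 0.0573).

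Those that rose included *Plod2* and *P4ha2*. *Plod2* encodes a lysyl hydroxylase of collagen telopeptides and rose from 8.59 ± 0.340 to 74.1 ± 19.7 CPM (SD, n = 3 each, log2 fold change 3.11, adjusted p = 0.000475 in edgeR). *P4ha2*, a catalytic subunit of collagen prolyl hydroxylase, had a log2 fold change of 1.31 (adjusted p = 0.0199 in edgeR), and did not pass without WT replicate 3 or *Mkx*-/- replicate 3 (0.0798 and 0.0593). *Vegfa*, the angiogenic factor most often used to read HIF activity, was at 43.1, 58.5 and 58.8 CPM in WT and at 47.4, 32.6 and 49.0 CPM in *Mkx*-/- libraries, with overlapping groups (log2 fold change -0.32, adjusted p = 0.380 in edgeR).

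Of 21 genes of glycolysis and glucose uptake, which HIF-1 is known to induce together, 1 rose and 1 fell, with a median log2 fold change of 0.061. *Eno2*, a neuronal form of enolase, rose (1.11, adjusted p = 0.0138 in edgeR), and *Pdk1*, the kinase that shuts pyruvate dehydrogenase, fell from 43.3 ± 0.549 to 24.7 ± 4.17 CPM (SD, n = 3 each, -0.81, adjusted p = 0.0183 in edgeR). The call on *Eno2* was lost without WT replicate 2 (adjusted p = 0.0589 in edgeR), and that on *Pdk1* without WT replicate 2 or 3 or *Mkx*-/- replicate 2 or 3 (0.0678, 0.0699, 0.0755 and 0.0675). The summed level of these 21 genes was 1267 to 1581 CPM in WT and 1375 to 1707 CPM in *Mkx*-/- libraries. Over the 9 pathway lists, 15 of 167 distinct tested genes were past an adjusted p of 0.05, with 6 higher and 9 lower, and the median was -0.035. Of all tested genes, 5.44% passed, 3.18% upward and 2.26% downward. The lists were written with earlier results of these data known, so this count is a description.

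**Figure D4:**
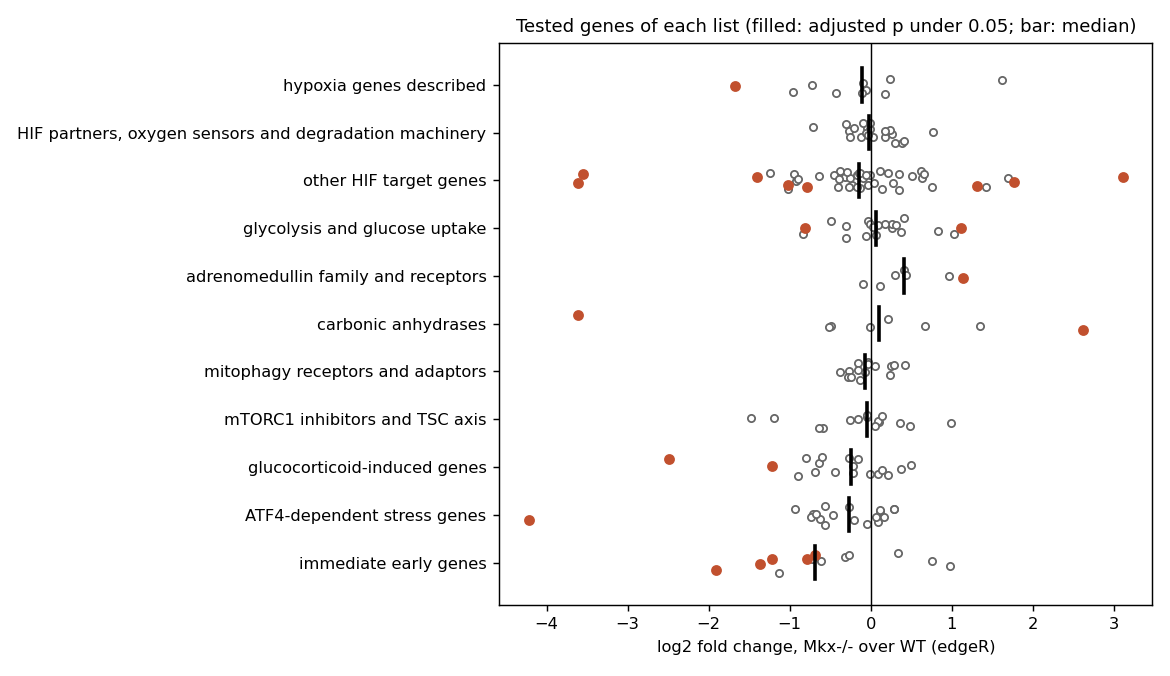
Log2 fold change of *Mkx*-/- over WT (x axis) for the tested genes of each list (rows), with filled points past an adjusted p of 0.05 in edgeR and a bar at the median. The 46 other HIF targets spread from -3.61 to 3.11, while the 22 tested genes of the sensing and degradation machinery stay between -0.72 and 0.77.

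**Figure D5:**
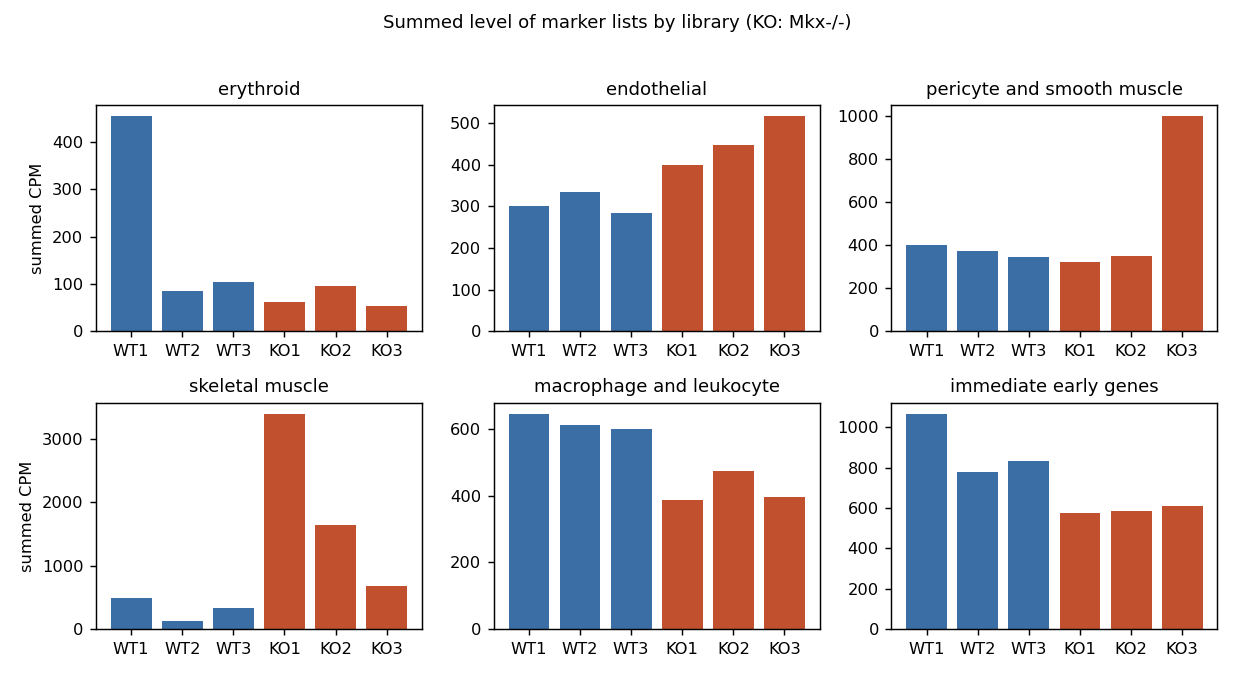
Summed CPM (y axis, from 0) of 6 lists of marker genes in the 3 WT (blue) and 3 *Mkx*-/- (red, KO) libraries. Erythroid genes stand out in WT replicate 1 at 455 CPM, pericyte and smooth muscle genes in *Mkx*-/- replicate 3 at 1000.2 CPM, and macrophage and leukocyte genes are lower in all 3 *Mkx*-/- libraries, at 387 to 475 CPM against 601 to 646 CPM.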

How the data were processed

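Tail tendon RNA of 3 WT and 3 *Mkx*-/- libraries was sequenced on the Ion Proton system. The authors removed adaptors and low-quality reads, aligned the rest to mm9 with MapSplice and deposited raw counts of reads per gene symbol, with no normalization. The counting program, its annotation, and its handling of strand and of multiply mapped reads are not given in the sources used here. All 6 columns were matched to samples by title.

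From the deposited counts, 14550 genes passed filterByExpr. TMM scaling and the quasi-likelihood test of edgeR 4.0.16 (R 4.3.3) on genotype gave CPM, log2 fold changes (prior count 0.125), approximate 95% intervals and Benjamini-Hochberg adjusted p over all genes. DESeq2 1.42.0 was the alternative test, since the study used it. With 3 against 3, an exact two-sided permutation test cannot go below 0.1. The scripts were tested on simulated data. Replicate libraries differed beyond sampling noise (chi-square over genes divided by its degrees of freedom, 7.59 to 36.4), so none was another library sequenced again. This value cannot show whether they came from different animals, since separate preparations of the same RNA can also differ. Exon lengths and mm9 positions came from GENCODE vM1.

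The 10 genes and the lists were chosen with earlier results of these data known. Named from the lists were up to 4 genes past the threshold with the smallest p, or else the first 2, and *Vegfa*, *Arnt*, *Hif1an* and *Egln2*. *Lox*, *Ndufa4l2*, *Rora*, *P4ha2*, *Ddx3y*, *Myh11*, *Txnip*, *Pdk4*, *Angptl4* and *Klf15* were named after their values were seen. A gene of the lists that the rule would name is not reported here. Alternatives were DESeq2, 3 other scalings, 2 other filters, a robust fit, the replicate block and each library left out.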

Additional observations from a re-analysis of the deposited data

How the results depend on the processing

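*Ddit4* kept its direction under all 14 alternatives, with log2 fold changes of -1.92 to -1.35, and was past an adjusted p of 0.05 in 11 of them (1.57e-06 to 0.0814). Over the fits that left out a library its range was -1.92 to -1.35. *Adm* kept its direction under all 14 and passed in 4. These were DESeq2 (1.62), library size only (1.85), the filter of 1 count in any library (1.63) and the fit without WT replicate 1 (2.33). Over the libraries left out *Adm* ranged from 1.25 to 2.33, and only 1 of those fits passed. The number of the 10 genes past the threshold, and the number called, was 1 with all libraries and 2 in each of DESeq2, library size only and the filter of 1 count. It was 0 to 2 over the libraries left out. Library size only moved the median log2 fold change of all genes from -0.004 to 0.25. With it the log2 fold changes of *Epas1*, *Egln3* and *Vhl* were 0.21, 0.14 and 0.13, and those of *Arnt* and *Egln2* were 0.22 and 0.20, against negative values with TMM. Over the libraries left out, *Epas1* ranged from -0.37 to 0.098, *Egln3* from -0.44 to 0.066, *Arnt* from -0.084 to 0.020 and *Egln2* from -0.18 to 0.0026. None of these passed the threshold, and the cause was not tested.

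The count of all genes called higher was 275, with 711 under library size only, 541 under the filter of 1 count and 103 to 321 over the libraries left out. The count called lower was 193, with 322 under that filter and 112 to 248 over the libraries left out. The 15 genes of the pathway lists became 28 with DESeq2, 31 with library size only, 28 with the filter of 1 count, and 9 to 21 over the libraries left out. The replicate numbers of the labels did not pair the libraries consistently. Deviations of log2 CPM from the group mean had correlations of 0.0328, -0.285 and 0.372 between libraries numbered 1, 2 and 3. The WT library correlated best with the *Mkx*-/- library of its own number for replicate 3, but not for replicates 1 and 2. With the replicate block, 195 genes were called higher and 136 lower, *Ddit4* had a log2 fold change of -1.66 and 1 of the 10 genes was past the threshold. Under the block the calls on *Car3*, *Fos*, *Jun* and *Rora* were lost (adjusted p = 0.0740, 0.0926, 0.0712 and 0.0505 in edgeR), as they were for *Car3* and *Fos* with the robust fit (0.0653 and 0.0774) and for *Jun* and *Rora* with library size only (0.139 and 0.0539). At 7 to 27 counts, the depth limits *Ankrd37* and *Egln3* most, and *Ankrd37* could not be tested under the filter of 10 counts in every library.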

Other observations

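Of the 128 genes more than 2 times higher in WT replicate 1 than in either other WT library, 17 were in the lists, among them *Bnip3*. The values of 4 others, chosen after they were seen, are given here. *Txnip*, which restrains glucose uptake, was at 3129 CPM in WT replicate 1 and at 643 and 450 CPM in the other WT libraries, against 846, 1351 and 520 CPM in *Mkx*-/- replicates 1 to 3. *Pdk4*, a kinase that shuts pyruvate dehydrogenase, was at 65.8, 13.2 and 9.45 CPM in WT and at 28.8, 39.5 and 7.93 CPM in *Mkx*-/- libraries. *Angptl4*, an inhibitor of lipoprotein lipase that HIF also induces, was at 335, 97.5 and 34.7 CPM in WT and at 82.4, 137 and 31.3 CPM in *Mkx*-/- libraries. *Klf15*, a transcription factor of the fasting response, was at 78.5, 34.2 and 30.3 CPM in WT and at 30.6, 39.1 and 22.1 CPM in *Mkx*-/- libraries. In each group the highest library for these 4 genes was the highest for *Bnip3*, WT replicate 1 and *Mkx*-/- replicate 2, and the same holds for *Ddit4* and *Adm*. For the 4 genes and *Bnip3*, the WT part was fixed by how the 128 genes were chosen. Not all of the 17 shared the *Mkx*-/- part. *Trib3* and *Chac1* were lowest in *Mkx*-/- replicate 2, at 3.16 and 19.95 CPM. *Myh1*, *Acta1* and *Hba-a2* were highest in *Mkx*-/- replicate 1, at 591, 675 and 18.6 CPM. *Hif1a*, *Car9*, *Ankrd37* and *Vegfa* had their lowest level of each group in WT replicate 1 and *Mkx*-/- replicate 2.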
